A study of Drosophila melanogaster with 56 samples.

Results

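*Obp50c* is 1 of 4 neighbouring odorant-binding protein genes (*Obp50a–d*) on chromosome arm 2R of *Drosophila melanogaster*, and the comparison described here asked what changed in the male transcriptome when it was the only functional member of the cluster. The 8 libraries were chosen by their labels, out of 56 in the series: 4 male libraries of genotype Obp50c and 4 male libraries of genotype Obp50Neg. In Obp50c flies, *Obp50a*, *Obp50b* and *Obp50d* carried premature termination codons (PTCs) and *Obp50c* was intact. In Obp50Neg flies, the null of the study, PTCs inactivated all 4 genes. Both genotypes were made in the Canton S (B) background by excising the cluster and putting an edited copy back at the same place, so the null also carries the attR and LoxP remnants and single-base substitutions in the flanking genes *CG34444* and *CG34185* that protected the template from Cas9. Each genotype was represented by 2 reinsertion lines with 2 libraries each, lines 24 and 6 for Obp50c and lines 31 and 30 for Obp50Neg. Each library was made from a pool of 30 whole mated males collected in the morning. Lines are the unit that carries the genotype, so differences between the genotypes rest on 2 lines against 2. The labels do not say whether the pools of a line came from separate cultures. The p-values therefore rest on a spread between libraries of a genotype, estimated over all 28 male libraries, that may be technical in part.

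Odorant-binding proteins are small secreted proteins that carry hydrophobic ligands. They are best known from the fluid that surrounds olfactory neurons, but many members of the family are made outside the chemosensory organs, in the gut, the fat body or the male reproductive tract. *Obp50b* and *Obp50c* are read from a bicistronic transcript, and *Obp50b* had a count of 0 in all 8 libraries, so it was not tested. As the transcript is shared, this count does not show that *Obp50b* RNA was absent. The counted span of *Obp50c* fills nearly all of the interval between *Obp50a* and *Obp50d*, so its level may be that of the shared transcript. Whole-fly RNA mixes all tissues, so fewer cells of a type and less RNA per cell cannot be told apart in any of the results that follow.

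The 4 Obp50c libraries held 24686778 to 29849120 counted fragments each, and the 4 Obp50Neg libraries 29688660 to 39352477. Levels are given as CPM, a gene's count over its library's total after scaling by the TMM method, and changes as log2 fold changes of Obp50c over Obp50Neg with their standard error (SE). One library stood apart. In library 61 of Obp50c line 6, the summed level of 17 transcripts specific to females (yolk, chorion and vitelline membrane proteins) was 2250 CPM, against 32.4 to 49.1 CPM in the other 7 libraries. *Yp2*, a yolk protein gene, stood at 576 CPM there and at 4.10 to 7.27 CPM in the others. Among the other 20 male libraries of the series this sum ran from 19.4 to 3687 CPM, and it was above library 61 in 3. Over both lines 0 of the 17 female transcripts were called in edgeR (median log2 fold change 3.83, and 0.15 without library 61), 11 had an unadjusted p below 0.05 and DESeq2 called 1.

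Of 15745 genes tested, 222 (1.41%) were called at a false discovery rate (FDR) below 0.05 in edgeR's fit over the 28 male libraries, 78 higher (0.495%) and 144 lower (0.915%) in Obp50c. Before adjustment, 2293 of the 15745 genes had a p below 0.05 in that fit. The groups did not overlap, with all 4 Obp50c libraries on 1 side of all 4 Obp50Neg libraries, for 48 of the 78 higher and 125 of the 144 lower genes. Over all genes tested, 9.59% did not overlap, 4.2% with Obp50c above and 5.39% with Obp50c below the null. The higher genes changed by more, by 1.43 on the log2 scale at the median. The lower ones were mostly modest, 121 of 144 changing by less than 2-fold (median log2 fold change -0.64). The count depended on which library was left out: it was 34 without library 43 and 38 without library 44 of line 24, 700 without library 61 and 818 without library 62 of line 6, and 149, 13, 31 and 124 without libraries 3, 4, 7 and 8 of Obp50Neg. Without library 61, 71 of the higher and 141 of the lower genes were still called. With the counts of each line summed, so that 2 lines stood against 2, 0 genes were called in edgeR and 1161 had an unadjusted p below 0.05, and limma-voom called 10 when line was entered as a random block.

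The 2 Obp50c lines were themselves unlike. With a mean for each line in the fit, 2881 genes (18.3%) differed between lines 24 and 6, whereas 7 genes (0.0445%) differed between the null lines 31 and 30. Against the null lines, line 24 had 2994 called genes (19%, of which 7.91% higher and 11.1% lower) and line 6 had 324 (2.06%, of which 0.502% higher and 1.56% lower). Among the 78 higher genes, 69 were called in line 24, 25 in line 6 and 16 in both. Among the 144 lower genes, 142 were called in line 24, 53 in line 6 and 51 in both, and line 24 lay farther from the null in 124 of them. Lines 24 and 6 differed in 47 of the higher genes, 40 of them higher in line 24 (9.25% over all genes), and in 51 of the lower genes, all lower in line 24 (9.04% over all genes). The mean of lines 24 and 6 against that of lines 31 and 30, in the same fit, gave 1184 calls (7.52%, of which 1.79% higher and 5.73% lower), which held all 222 genes. The median log2 fold change of the higher genes was 1.61 in line 24 and 0.56 in line 6, and that of the lower genes -0.83 and -0.47. These tests use the spread between the 2 libraries of a line, estimated over all 14 male lines, and not the spread between lines.

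**Figure D1:**
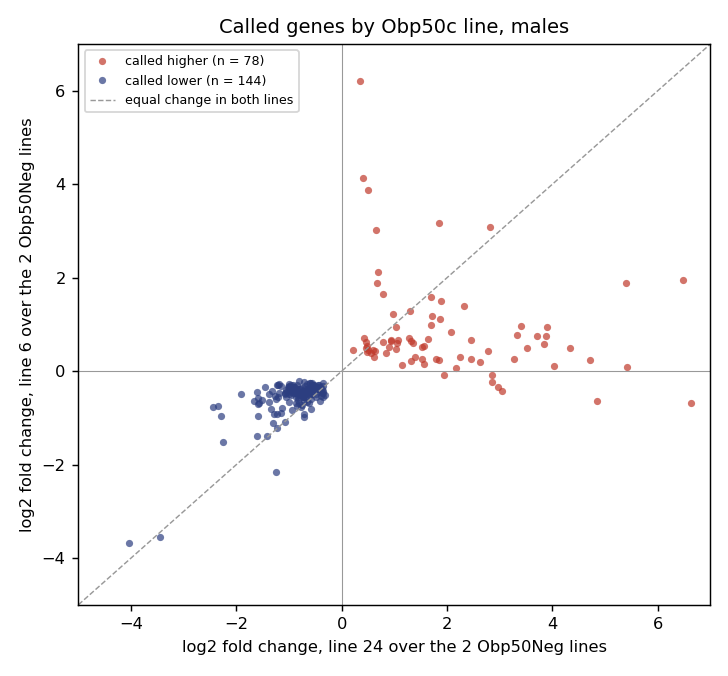
Log2 fold change of the 222 called genes in male Obp50c line 24 (horizontal axis) and line 6 (vertical axis) over the mean of the 2 null lines, with 1 point per gene and the diagonal marking equal change. Most lower genes lie above the diagonal, with line 24 farther from the null in 124 of 144. Many higher genes lie near the horizontal axis: 37 of 78 were at least 2 times as high in line 24 as in line 6, and 7 the reverse.

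The transcript of the reinserted gene was measured first. *Obp50c* (2R, 14371186 to 14373006, FlyBase release 6 as in the count files) was at 11.6 and 11.8 CPM for line 24 and 12.6 and 11.9 CPM for line 6, and at 12.5 and 9.45 CPM in null line 31 and 8.98 and 13.1 CPM in null line 30. The groups overlapped (log2 fold change 0.12 ± 0.16 SE, FDR = 0.79). Exon counts do not tell the intact allele from the one with PTCs, so this level checks the transcript and not the genotype. *Obp50a* and *Obp50d* were low in all 8 libraries, at 0 to 0.523 CPM and 0.307 to 1.43 CPM, and neither passed the test (FDR = 0.89 and 0.64). In females of the same lines, *Obp50c* was at 0 to 0.742 CPM, below every male library.

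One neighbour of the cluster did change. *CG34444* (2R, 14369217 to 14370326), which ends 5 bases before *Obp50a*, was at 13.2 and 17.6 CPM for line 24, 0.941 and 0.391 CPM for line 6, and 0.0762 to 0.266 CPM in the 4 null libraries. It was high in line 24 and only just above the null in line 6 (log2 fold change 5.52 ± 1.40 SE, FDR = 0.044), and lines 24 and 6 differed (FDR = 0.022). The null values rest on 3 to 8 fragments a library. *CG34185*, on the other side of the cluster, lay between 0.0977 and 0.732 CPM in Obp50c and between 0.0762 and 0.341 CPM in the null, and did not pass (FDR = 0.77). Among the 30 tested genes within 100 kb of the cluster on either side, *CG34444* was the 1 gene called (1.41% over all genes). It was also high in females of line 24, at 14.8 and 39 CPM, with 0.300 and 0.360 CPM in females of line 6.

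**Figure D2:**
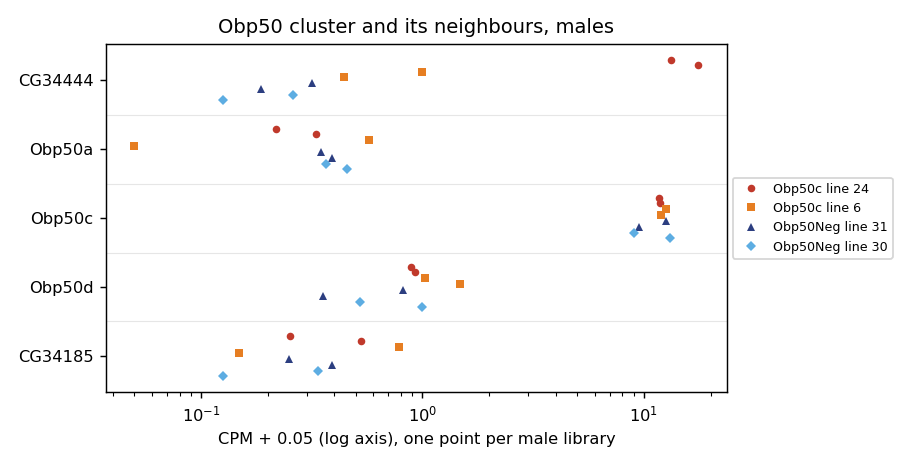
CPM + 0.05 on a log axis for *CG34444*, the measured *Obp50* genes and *CG34185* in 8 male libraries, with 1 point per library, coloured and shaped by line. *Obp50c* sits between 8.98 and 13.1 CPM in both genotypes, and *CG34444* stands out at 13.2 and 17.6 CPM in the 2 libraries of line 24.

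Many of the higher genes were high in line 24 and near the null in line 6. *Hsepi*, the epimerase of heparan sulfate chains, was at 569 and 833 CPM for line 24, at 62.3 and 34.9 CPM for line 6, and at 29.2 to 43.6 CPM in the null (log2 fold change 3.43 ± 0.73 SE, FDR = 0.019). *Tif-IA*, the initiation factor of RNA polymerase I, was at 284 and 496 CPM for line 24, 60.8 and 36.3 CPM for line 6, and 40.3 to 40.7 CPM in the null (2.44 ± 0.45 SE, FDR = 0.0091). For *Tif-IA* the null libraries were almost level, and library 62 of line 6 lay below all of them. *lncRNA:Hsromega*, the long noncoding RNA of the omega speckles, was at 4778 and 5278 CPM for line 24 against 397 and 510 CPM for line 6 and 504 to 747 CPM in the null. Line 6 was thus not above the null for this RNA. The zinc finger gene *gfzf* (239 and 435 CPM for line 24, 36.3 to 50.2 CPM in the other 6 libraries) and *VGlut*, the vesicular glutamate transporter (317 and 421 CPM, and 82.5 to 102 CPM), had the same pattern. The replication licensing factor *Cdc6* was at 42.1 and 42.7 CPM for line 24 and at 6.48 to 10.6 CPM in the others. *Tif-IA* was 1 of 23 genes of RNA polymerase I and ribosome assembly, and the 1 called (median log2 fold change of the list 0.12). Over all genes, 0.495% were called higher. *Hsepi*, *gfzf*, *VGlut*, *lncRNA:Hsromega* and *Cdc6* were chosen for description after their values were seen, and *gfzf*, *VGlut* and *Cdc6* each overlap another gene.

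Several genes of lower level followed line 24 as well, with line 6 slightly above the null. *Gr23a*, a gustatory receptor, was at 13.2 and 4.46 CPM for line 24, 0.349 and 1.17 CPM for line 6 and 0.0762 to 0.273 CPM in the null (log2 fold change 4.49 ± 1.12 SE, FDR = 0.042). *PK2-R2*, a pyrokinin receptor, was at 17.6 and 13.2 CPM, 2.82 and 2.83 CPM, and 0.965 to 2.13 CPM (2.56 ± 0.57 SE, FDR = 0.022). In both receptors the 4 Obp50c libraries lay above the 4 null libraries, which was a condition of naming them. Line 6 was not separated from the null by the test of that line (FDR = 0.37 and 0.23). *Mys45A* was at 61.4 and 88.1 CPM for line 24, 20.3 and 18.7 CPM for line 6 and 15 to 16.6 CPM in the null. *nw*, *CG13332* and *CG30338* were 7.31-, 8.41- and 7.92-fold higher over both lines, and each differed between lines 24 and 6 (FDR = 0.0003, 0.0013 and 0.00025). *CG13332* overlaps *Vmat*, *CG30338* overlaps *clos* and *CG1902*, and *Mys45A* overlaps *tsu*. Strand was not used in counting, so reads of overlapping genes cannot be told apart.

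A few genes were higher in line 6 than in line 24, and 3 of these rested on library 61. In these 3, *lncRNA:CR44284*, *CG10445* and *CG11619*, line 24 also lay above the null, which was a condition of naming them. Without line 6 their log2 fold changes were 0.50, 0.65 and 0.69, and edgeR called none of them (FDR = 0.45, 0.27 and 0.097). *lncRNA:CR44284* was at 57.9 CPM in library 61 and 8.18 CPM in library 62, at 3.36 and 3.03 CPM for line 24 and at 1.93 to 2.73 CPM in the null. *CG10445* was at 43.9 CPM in library 61, 5.08 CPM in library 62 and 3.98 to 5.45 CPM for line 24, and *CG11619* at 21.7, 5.73 and 4.91 to 5.26 CPM. Library 61 is also the library with female transcripts, and the part of those transcripts in these 3 results was not tested. In females, *CG10445* was at 20.7 and 21.1 CPM for line 24 and 44 and 131 CPM for line 6, against 9.39 to 11.2 CPM in the null (FDR = 0.039), so there it was high in both lines. *lncRNA:CR44284* overlaps *Rab32*. *lncRNA:CR44940* was higher in both lines, at 4.04 and 5.06 CPM for line 24 and 8.82 and 2.08 CPM for line 6, against 0.444 to 0.838 CPM in the null (log2 fold change 2.94 ± 0.64 SE, FDR = 0.021).

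*CG2187* had the lowest FDR of all genes and rose in both lines. RefSeq lists it with the synonym dSLC5A6, a name of the sodium-coupled solute carriers. It was at 12.1 and 16.7 CPM for line 24 and at 35 and 36.9 CPM for line 6, against 3.79 to 4.25 CPM in the null (log2 fold change 2.65 ± 0.30 SE, FDR = 5.2e-05). Here line 6 was the higher of the 2 lines (FDR = 0.0006 for their difference), and each line passed against the null on its own (FDR = 3.8e-06 and 2.5e-08). The call held under 20 of the 22 alternatives tried.

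Ribosomal RNA fragments were also more abundant in all 4 Obp50c libraries. Of 18 measured rRNA genes and rRNA pseudogenes, 7 were called higher and 0 lower, with a median log2 fold change of 1.42 (0.03 over all genes tested), a list drawn up after values were seen (0.495% of all genes were higher). With line entered as a random block, limma-voom called 1 of them, *28SrRNA-Psi:CR45848* (FDR = 0.027), and the nested linear model 1, *28SrRNA-Psi:CR45859*. *28SrRNA-Psi:CR45848* was at 60.2 and 58.7 CPM for line 24, 35.8 and 26.5 CPM for line 6 and 8.69 to 13.7 CPM in the null (log2 fold change 1.92 ± 0.31 SE, FDR = 0.0029). *28SrRNA-Psi:CR45855* was at 122, 109, 73.7 and 103 CPM against 24.4 to 41.3 CPM (1.70 ± 0.32 SE, FDR = 0.011). The summed level of the 18 transcripts was 2131 and 2121 CPM for line 24, 1445 and 1348 CPM for line 6, and 423 to 786 CPM in the null, with line 24 above line 6 and both above the null. These libraries were depleted of rRNA, the pseudogenes share sequence with the rDNA repeats, and the part of depletion in these values was not tested. *CR40712*, a gene on an unplaced scaffold, was at 78.1 to 99.6 CPM in Obp50c and 14.2 to 38.9 CPM in the null (FDR = 0.0074).

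Transcripts of the mitochondrial genome were measured as well. Of its 18 measured genes 17 had a log2 fold change above 0 (median 0.82) and 0 passed the test in edgeR or DESeq2, with 1 at an unadjusted p below 0.05. *mt:lrRNA*, the large mitochondrial rRNA, was at 7690 and 7566 CPM for line 24, 13008 and 8132 CPM for line 6 and 2209 to 2984 CPM in the null, so the groups did not overlap (FDR = 0.45). *mt:srRNA*, the small one, was at 2054 to 6545 CPM in Obp50c and 108 to 1039 CPM in the null (FDR = 0.42). The summed level of the 18 was 27613 to 48034 CPM in Obp50c and 18676 to 24311 CPM in the null.

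**Figure D3:**
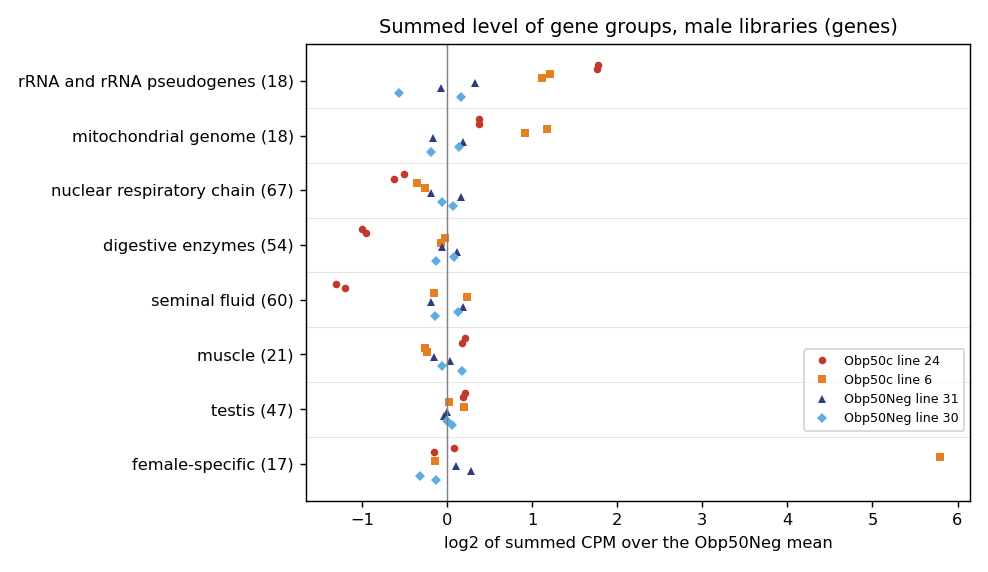
Summed CPM of gene groups in each male library, as log2 over the mean of the 4 null libraries, with the number of genes in parentheses, 1 point per library. rRNA transcripts lie above the null in all 4 Obp50c libraries (1348 to 2131 CPM against 423 to 786 CPM), digestive enzyme and seminal fluid transcripts are low in line 24 and not in line 6, and female-specific transcripts are high in library 61 of line 6 (2250 CPM).

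Nuclear genes of the respiratory chain and ATP synthase lay lower in Obp50c. These proteins are built in the cytoplasm and join the products of the mitochondrial genome in the inner membrane. Of 67 measured, 12 were called lower and 0 higher, and 66 had a log2 fold change below 0 (median -0.43), in a list drawn by gene symbol after values were seen (0.915% of all genes were lower). With line entered as a random block, limma-voom called 1 of them, *ATPsyndelta* (FDR = 0.036), and the nested linear model 0. The called members were *ND-B14* and *ND-SGDH* of complex I, *SdhB* of complex II, *RFeSP* of complex III, *COX5A*, *COX5B*, *cype* and *levy* of cytochrome c oxidase, and *ATPsyndelta*, *ATPsynD*, *ATPsynF* and *ATPsynG* of ATP synthase. They were 1.45- to 1.96-fold lower. *ATPsyndelta* was at 190 and 174 CPM for line 24, 290 and 312 CPM for line 6 and 366 to 568 CPM in the null (log2 fold change -0.97 ± 0.17 SE, FDR = 0.0082), with line 6 between line 24 and the null. *SdhB* was at 180, 169, 200 and 198 CPM against 260 to 323 CPM (-0.64 ± 0.13 SE, FDR = 0.017) and its lines were not separated (FDR = 0.48). All 12 were called in line 24 and 4 in line 6 when the lines were tested apart. Of the whole list, 52 were lower in line 24 and 4 in line 6, against 11.1% and 1.56% of all genes. The summed level of the 67 was 13852 and 12773 CPM for line 24, 15317 and 16386 CPM for line 6, and 17224 to 22027 CPM in the null. *Cat*, the catalase that removes hydrogen peroxide, fell alongside them, with 442 and 434 CPM for line 24, 774 and 614 CPM for line 6, and 890 to 954 CPM in the null (-0.69 ± 0.15 SE, FDR = 0.021). *Cat* was named after its values were seen.

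The lower genes included *Drsl5* of the drosomycin family and the Bomanin genes *BomBc2* and *BomT2*. Insects answer infection with small secreted peptides made mainly by the fat body, and Bomanin peptides belong to that response. *Drsl5*, a drosomycin-like gene, was at 37 and 39.4 CPM for line 24, 28.6 and 48.7 CPM for line 6 and 72.2 to 112 CPM in the null (log2 fold change -1.23 ± 0.18 SE, FDR = 0.0019). *BomBc2* was at 38.2 and 33.8 CPM, 36.6 and 34.8 CPM, and 65.3 to 88.1 CPM (-1.08 ± 0.19 SE, FDR = 0.0082). For both genes the 2 Obp50c lines were not separated (FDR = 0.97 and 0.98), and all 4 of their libraries lay below the null. *BomT2*, a neighbour of *BomBc2* on 2R, was at 2.93 and 2.91 CPM for line 24, 5.93 and 5.93 CPM for line 6 and 7.03 to 11.5 CPM in the null (FDR = 0.028). *Drsl5* was 1 of 5 drosomycin-like genes, and 0.915% of all genes were lower. *BomBc2* and *BomT2* were 2 of 28 antimicrobial peptide and Bomanin genes, with 0 higher and a median log2 fold change of 0.20. With line entered as a random block, limma-voom called *Drsl5* (FDR = 0.031) and 0 of the 28 (FDR = 0.065 for *BomBc2* and 0.15 for *BomT2*), and the nested linear model called 0 of both lists. In line 24 alone 15 of the 28 were lower (11.1% of all genes). In line 6, 1 was lower and 1 higher (1.56% and 0.502% of all genes). The median log2 fold change in line 6 was 1.01, and library 61 held high levels of some of the 28. *Dro*, the peptide drosocin, was at 369 CPM in library 61 and at 4.95 CPM in library 62, with 29.1 to 112 CPM in the null. Without library 61 the count of lower antimicrobial genes was 7 of 28, in a fit that called 2.9% of all genes lower. *BomBc2* overlaps *BomS4*. The prophenoloxidase *PPO2*, named after its values were seen, was at 33.7 to 38.5 CPM in Obp50c and 54.7 to 56.8 CPM in the null (FDR = 0.016).

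The lower genes included 4 neighbours on 2L. *CG33307*, *CG33306*, *CG8997* and *CG7916* lie between positions 13839262 and 13847799, within the span of *CenG1A*. *CG8997* was at 92.2 and 107 CPM for line 24, 137 and 122 CPM for line 6 and 195 to 311 CPM in the null (log2 fold change -1.11 ± 0.23 SE, FDR = 0.017). *CG7916* was at 56.5, 71.1, 111 and 87.1 CPM against 155 to 230 CPM (-1.25 ± 0.26 SE, FDR = 0.019). *CG33306* was 2.1-fold and *CG33307* 1.84-fold lower (FDR = 0.03 and 0.016), the last named after its values were seen. In each of the 4 genes all Obp50c libraries lay below all null libraries. For *CG33306*, *CG8997* and *CG7916* this separation was a condition of being named. *CenG1A* itself did not pass (FDR = 0.87).

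The other lower genes with large changes encode secreted peptides, a membrane protein, noncoding RNAs and proteins named only by number. *Nplp2*, a precursor of small secreted peptides, was at 279 and 308 CPM for line 24, 774 and 797 CPM for line 6 and 874 to 1324 CPM in the null (log2 fold change -1.04 ± 0.26 SE, FDR = 0.039). *Reg-2*, a rhythmically expressed gene, was at 12.7 and 12.5 CPM, 23 and 23.6 CPM, and 29.9 to 44.1 CPM (FDR = 0.012). *CG43349* (22.2 and 24.4 CPM for line 24, 76.5 and 64.4 CPM for line 6, 92.8 to 145 CPM in the null) and *CG34176* (9.72 and 10.4 CPM, 40 and 24.9 CPM, 46.3 to 66.3 CPM) had the same order. In these 4 genes line 24 was far below line 6, and their lines differed (largest FDR = 0.0063). *Tsp47F*, a tetraspanin membrane protein, was low in both lines, at 0.773 and 1.16 CPM for line 24 and 0.662 and 0.358 CPM for line 6, against 1.86 to 3.31 CPM in the null (-1.64 ± 0.30 SE, FDR = 0.0091). *lncRNA:CR44138*, *lncRNA:CR33942* and *CG34316* were 2.91-, 2.63- and 2.32-fold lower, and lines 24 and 6 were not separated (smallest FDR = 0.71). *lncRNA:CR44138* overlaps *CG9813*, and *CG34316* overlaps *asRNA:CR43471*. *snoRNA:Me18S-C1831*, a guide RNA for rRNA methylation, reached 8.40 CPM in library 62 and 8.43 CPM in null library 8, which were barely apart (FDR = 0.011), and it lies within *RpL27A*.

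**Figure D4:**
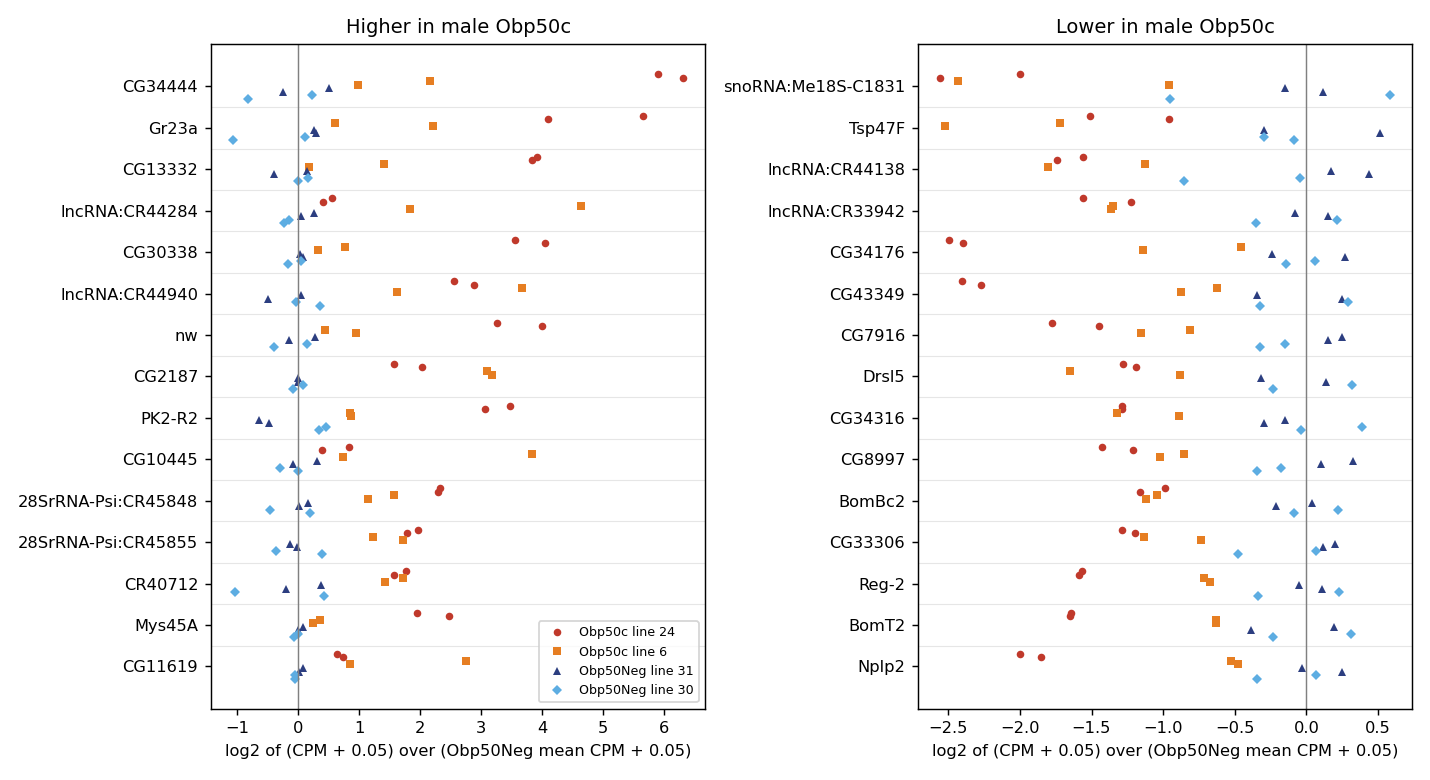
Levels of the 15 higher (left) and 15 lower (right) genes with the largest change among the called genes without overlap, as log2 of CPM + 0.05 over the null mean + 0.05, with 1 point per male library. *Gr23a* and *nw* are highest in line 24, *CG2187* is higher in both lines with line 6 on top (35 and 36.9 CPM), and *Drsl5* and *BomBc2* are low in both lines.

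Genes of the male germ line were called in both directions. Of 47 testis genes 2 were called higher and 1 lower (median log2 fold change 0.18), against 0.495% and 0.915% of all genes. With line entered as a random block, 0 were called in limma-voom (FDR = 0.062 for *ProtB*, 0.15 for *Mst36Fb* and *nht*), and 0 in the nested linear model. *ProtB*, a protamine that packs sperm DNA, was at 132 and 140 CPM for line 24, 67.4 and 115 CPM for line 6 and 46.9 to 66.1 CPM in the null (log2 fold change 1.02 ± 0.17 SE, FDR = 0.0037). *Mst36Fb* was at 33.1 to 40.4 CPM against 21.3 to 29.9 CPM (0.52 ± 0.13 SE, FDR = 0.044). *nht*, a testis-specific TAF, was at 3.97, 4.62, 6.14 and 4.76 CPM against 6.86 to 9.15 CPM (-0.65 ± 0.14 SE, FDR = 0.022). In a list of 7 sperm chromatin proteins drawn up after values were seen, edgeR called 3 higher and 0 lower, *ProtB* and 2 others, and the voom and nested fits 0. *Tpl94D* was at 6.68 to 9.40 CPM against 3.63 to 5.25 CPM in the null (FDR = 0.021), and *tHMG1* at 30.2 to 34.5 CPM against 22.2 to 27.7 CPM (FDR = 0.043). Without library 61, 6 of the 47 testis genes were higher and 1 lower, in a fit that called 1.54% of all genes higher and 2.9% lower.

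Single members of other families were called, where 0.495% of all genes were called higher and 0.915% lower. The photoreceptor scaffold *inaD* was at 132, 124, 121 and 133 CPM in Obp50c and 170 to 190 CPM in the null, without overlap (log2 fold change -0.49 ± 0.08 SE, FDR = 0.0025). Its lines were not separated in males (FDR = 0.99), whereas in females it was at 26.7 and 23.2 CPM for line 24, 67 and 70.2 CPM for line 6 and 78.6 to 97.9 CPM in the null (FDR = 0.19). Arrestin *Arr1* was at 276 and 274 CPM for line 24, 337 and 343 CPM for line 6 and 394 to 414 CPM in the null (FDR = 0.046), and these were 2 of 23 eye genes, with 0 higher. *Obp19b*, another odorant-binding protein, was at 17.6 to 17.8 CPM in all 4 Obp50c libraries and at 23 to 33.2 CPM in the null (-0.66 ± 0.13 SE, FDR = 0.016), 1 of 47 genes of its family. Of 82 cytochrome P450 genes, *Cyp18a1*, which inactivates ecdysone, rose 1.39-fold (FDR = 0.034) and *Cyp6g1*, known for insecticide resistance, fell 1.32-fold (FDR = 0.049). The glutathione transferase *GstS1* was at 418 and 379 CPM for line 24, 598 and 679 CPM for line 6 and 683 to 872 CPM in the null (FDR = 0.046), 1 of 35. *inaD* overlaps *RpL23* and *Cyp6g1* overlaps *Cyp6g2*.

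The lower genes with the largest changes, *Ir67a* and *lncRNA:CR42790*, were set apart by null line 31. *Ir67a*, an ionotropic receptor gene, was at 37.1 and 74.2 CPM in null line 31, and at 0.210 and 0.127 CPM in null line 30, within the 0.0326 to 0.453 CPM of Obp50c. *lncRNA:CR42790* was at 386 and 513 CPM for line 31, 29.1 and 7.37 CPM for line 30 and 6.17 to 9.25 CPM in Obp50c. Their log2 fold changes were -7.01 and -4.87, and the 2 null lines differed in both genes. Both were named after their values were seen.

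Several gene groups had no called member over both lines. In the seminal fluid, ejaculatory duct and bulb, and digestive enzyme groups line 24 nevertheless stood apart. Of 60 seminal fluid genes, made in the male accessory glands, 0 were called in edgeR with both lines together (median log2 fold change -0.33), 16 had an unadjusted p below 0.05 and DESeq2 called 2. By line, 46 were lower in line 24, while in line 6 0 were lower and 1 was higher. Over all genes tested, line 24 had 11.1% lower and 7.91% higher, and line 6 had 1.56% lower and 0.502% higher. *Sfp60F* was at 561 and 612 CPM for line 24, 2819 and 3845 CPM for line 6 and 1909 to 2556 CPM in the null. *Acp36DE*, which mated males pass to females, was at 2035 and 2117 CPM for line 24 and at 3590 to 4156 CPM in the other 6 libraries. Lines 24 and 6 differed in 51 of the 60 genes, all lower in line 24 (9.04% over all genes). Of the ejaculatory duct and bulb genes, 7 of 8 were lower in line 24, and 0 lower and 1 higher in line 6, and over both lines edgeR called 0 with 0 at an unadjusted p below 0.05. Of 54 digestive enzyme genes, 23 were lower and 1 higher in line 24, and 1 was lower in line 6. Over both lines 0 were called in edgeR, 17 had an unadjusted p below 0.05 and DESeq2 called 3. *Jon65Aiv*, a gut protease, was at 891 and 956 CPM for line 24, 3046 and 2395 CPM for line 6 and 2373 to 2936 CPM in the null. The summed level of the 54 was 9802 and 10116 CPM for line 24 and 17939 to 21244 CPM in the other 6 libraries. Of the cytosolic ribosomal protein genes, 0 of 87 were called in edgeR and 6 in DESeq2, 25 had an unadjusted p below 0.05, and the median change was 0.04 on the log2 scale. Heat shock (21), Turandot (8), cuticle (88), insulin pathway (27), lipid metabolism (21), clock (14), muscle (21) and immune signalling (35) genes also had 0 calls in edgeR over both lines. At an unadjusted p below 0.05 there were 4, 3, 6, 6, 4, 1, 5 and 7 genes of these lists in turn, and DESeq2 called 1 insulin pathway and 1 immune signalling gene. Over all genes tested, 2293 of 15745 had an unadjusted p below 0.05 in edgeR, and DESeq2 called 587 of 13596.

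The series also compared flies with and without functional *Obp50c* beside another *Obp50b* allele. In Obp50cBCD and Obp50NegBCD, *Obp50b* carries amino acid substitutions (CD) in place of PTCs, and only the first has intact *Obp50c*. The paper made the CD allele because PTCs in *Obp50b* could impair expression of *Obp50c* from the shared transcript. It also reported that CD acted on the transcriptome itself, and did not take it as an inactive *Obp50b*. The 2 comparisons are therefore not like for like. That male comparison, 4 libraries against 4 from other lines, shares no library with the one described here. It called 299 genes (1.9%, of which 1.42% higher and 0.483% lower). Of the 78 genes higher in Obp50c, 33 were higher and 0 were called higher there, and 1 was called lower, with a median log2 fold change of -0.06. Of the 144 lower genes, 79 were lower there and 2 were called lower (median -0.04). These counts of calls are small and were not tested against the shares over all genes. Over all genes tested, as many were higher as lower there. The paper, whose model held line and sex, reported mostly higher male genes for *Obp50c* beside the PTC allele. Beside the CD allele it reported mostly lower ones. The balance of calls here ran the other way in both comparisons, and the reason was not tested. *CG2187* had a log2 fold change of 0.48 ± 0.29 SE there (FDR = 0.39), *Drsl5* -0.10 ± 0.18 SE (FDR = 0.80) and *ATPsyndelta* 0.40. The difference between the 2 backgrounds was called for 34 genes over the whole table (0.216%, of which 0.152% with the larger value beside the PTC allele and 0.0635% with the smaller), among them 10 of the 78 higher and 8 of the 144 lower genes, which were chosen here on part of the same contrast. *CG2187* (FDR = 0.021), *inaD* (0.04), *Tsp47F* (0.04), *ATPsyndelta* (0.017), *COX5B* (0.021) and *28SrRNA-Psi:CR45848* (0.015) are among them. The rRNA list had a median log2 fold change of -0.48 there and the nuclear respiratory chain list -0.04.

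**Figure D5:**
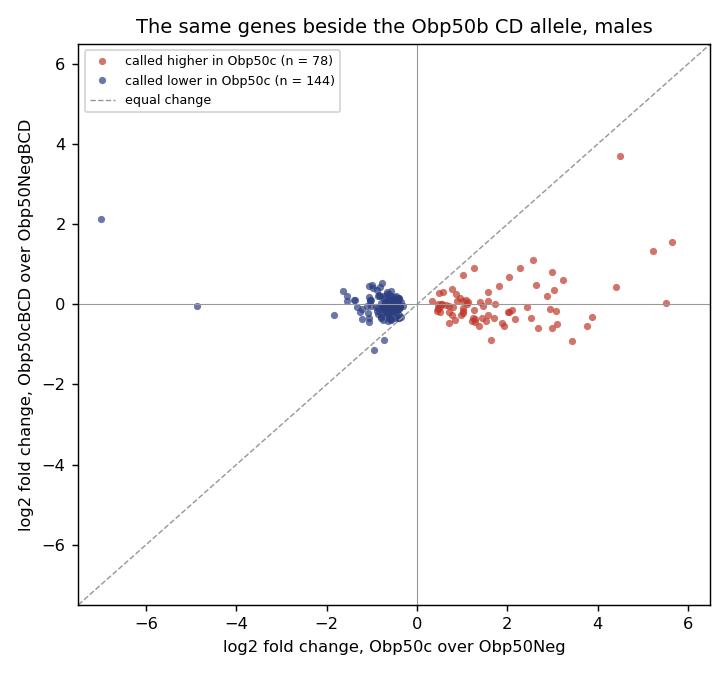
Log2 fold change of the 222 called genes in males whose *Obp50b* carries PTCs (horizontal axis, Obp50c over Obp50Neg) or the CD allele (vertical axis, Obp50cBCD over Obp50NegBCD), 1 point per gene, with the diagonal marking equal change. The points spread around 0 on the vertical axis, and 2 of the 222 genes were called in the same direction in both. Beside the CD allele, 1.42% of all genes were called higher and 0.483% lower.

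Females of the same 4 lines were measured as well. In females 3 of 14991 genes (0.02%) were called, 2 higher (0.0133%) and 1 lower (0.00667%), and all 3 were called in males. Of the 77 higher genes also tested in females, 70 were higher there (median log2 fold change 1.37), and of 143 lower genes 137 were lower (median -0.44), while 49.2% of all genes tested in females were higher. The sexes share their lines, so line and genotype cannot be told apart in these signs. *Hsepi* was at 734 and 1153 CPM in females of line 24 and 35.9 and 84.2 CPM in females of line 6, with 26.8 to 51.5 CPM in null females. *CG2187* was at 13.2 and 16.8 CPM in females of line 24 and 23.6 and 16.8 CPM for line 6, against 1.89 to 4.19 CPM in null females (FDR = 0.0012). The difference between the sexes in the effect of *Obp50c* was called for 0 of 15675 genes in edgeR, with 662 at an unadjusted p below 0.05.

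The other male genotypes with 1 functional paralog share the null libraries, so only their levels are set beside these. *CG2187* lay between 3.85 and 6.64 CPM in Obp50a males, 3.40 and 5.2 CPM in Obp50b males and 4.81 and 5.73 CPM in Obp50d males, and at 3.09 and 3.22 CPM with the whole cluster intact (Obp50Pos). All were below the 12.1 CPM of the lowest Obp50c library. *Drsl5* lay between 78.8 and 119 CPM in Obp50a and between 53.8 and 85.0 CPM in Obp50b males, at 120 and 121 CPM in Obp50d males and at 106 and 110 CPM in Obp50Pos males, above the 28.6 to 48.7 CPM of Obp50c. *inaD* was at 152 to 192 CPM over Obp50a, Obp50b, Obp50d and Obp50Pos males and at 121 to 133 CPM in Obp50c. *Tif-IA* was at 36.2 to 76.8 CPM in every male library outside line 24.

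Called genes lay on every large chromosome arm. The share called was 1.38% on 2L, 1.69% on 2R, 1.16% on 3L, 1.24% on 3R and 1.57% on X. Of the 105 genes on chromosome 4, 1 was called. On the Y chromosome 0 of 57 were called in edgeR or DESeq2, with 5 at an unadjusted p below 0.05 (2293 of 15745 over all genes). The share was 33.3% (2 of 6) among genes of the rDNA and 5.36% (3 of 56) on other scaffolds and the mitochondrial genome.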

How the data were processed

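RNA of pooled whole flies was sequenced in 56 libraries, 28 of them from males. According to the study's methods, the authors depleted ribosomal RNA, amplified the libraries over 17 cycles, aligned reads with GSNAP, and assigned fragments that mapped to 1 place to the exons of each gene in featureCounts, ignoring strand. The deposited values are these raw counts, with no normalization. Coordinates are those of the deposited files (FlyBase release 6). Of 17489 gene IDs, 17287 matched the Ensembl name table used for biotypes and current symbols.

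The filter on low counts kept 15745 of 17490 genes, those seen in 25% or more of the male libraries with a median of 2 or more. edgeR 4.0.16 in R 4.3.3 was fitted over all 28 male libraries with TMM scaling, a mean for each of 8 genotypes and the quasi-likelihood test, with Benjamini-Hochberg adjustment over all genes tested. Line contrasts came from a fit with a mean for each of 14 lines. This fit was chosen after seeing the data, and so were the lists of rRNA, nuclear respiratory chain and sperm chromatin genes. The female fit used 26 libraries, without the 2 that the study left out, and the sex difference was tested over 54. No pair of libraries of a line agreed within counting error (chi-square per degree of freedom 16.4 to 64.2), so none was taken for 1 library deposited in 2 files. This does not show that the pools are separate biological replicates.

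Named genes were up to 15 in each direction with the largest change among called genes whose libraries did not overlap and whose mean was at least 1 CPM in the higher group, the *Obp50* genes and their neighbours, *CG2187*, *Drsl5* and *Tif-IA*, and called members of the gene lists. Other genes are marked as named after their values were seen. Members and lists were chosen with earlier results of these data known. On simulated counts of 15711 genes with the fitted spread, edgeR recovered 53% of 100 genes changed 2-fold and 86% of 100 changed 4-fold, and 2.8% of its calls were false. The simulated libraries were drawn independently, with no shift shared by the libraries of a line. The false share therefore does not cover differences between lines such as those seen here. The alternatives were DESeq2's size factors, the DESeq2 1.42.0 Wald test, other filters, other sets of libraries and counts summed per line. Others were limma 3.58.1 (voom) blocked by line and a linear model on male GeTMM values with line nested in genotype. Each library and line was also left out. The nested model followed the study's in its line term, but had no sex terms and used males alone. It pooled line and residual variance where lines varied less. Its count therefore does not stand for that of the study's model. Figures were drawn with matplotlib 3.10.9.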

Additional observations from a re-analysis of the deposited data

Results flagged for a closer look

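In 5 of the 44 named genes the effect of functional *Obp50c* differed between the 2 *Obp50b* backgrounds. This was the test of the difference in edgeR (FDR below 0.05), which called 0.216% of all genes. Most named genes were chosen on the contrast of Obp50c with Obp50Neg, which is part of this difference. A share above that of all genes was thus favoured by the choice. The log2 fold change with the PTC allele minus that with the CD allele was 2.17 for *CG2187* (FDR = 0.021), -0.51 for *inaD* (FDR = 0.04), 2.46 for *28SrRNA-Psi:CR45848* (FDR = 0.015), 2.52 for *CR40712* (FDR = 0.0072) and -1.97 for *Tsp47F* (FDR = 0.04). The 2 backgrounds were represented by different lines, so allele and line cannot be told apart.

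In 4 named genes, 1 of the 4 Obp50c libraries lay far from the other 3. Library 61 of line 6 was the high one for *lncRNA:CR44284* (57.9 CPM), *CG11619* (21.7 CPM) and *CG10445* (43.9 CPM), and library 62 of line 6 for *CG34316* (1.43 CPM). Each of 44 named genes was examined in 2 groups, 88 in all, of which chance would mark 4.4.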

How the results depend on the processing

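The count of 222 called genes moved with the tool, with the libraries in the fit and with how line entered it. It was 0 with counts summed per line (1161 at an unadjusted p below 0.05), 10 in limma-voom blocked by line, 6 in a nested linear model on male GeTMM values, 15 with the 8 libraries alone, 3 with both sexes in 1 fit, 587 in DESeq2 and 1184 with a mean per line, the last chosen after seeing the data. Leaving out a library gave 13 to 818 calls, and leaving out a line gave 7 (line 31), 27 (line 30), 26 (line 24) and 2571 (line 6). DESeq2's size factors (223), no filter (208), a mean count minimum of 10 (289) and the filter over both sexes (222) stayed within 1.5 times. The 222 genes kept their sign under every alternative listed except without line 31 (221 kept it) and without line 24 (215). Of 22 alternatives, counting each library and line left out and without the fit with a mean per line, at least 11 called 15 of the 78 higher and 26 of the 144 lower genes. *CG2187* was called under 20 of these and *Drsl5* under 19. For the named genes, 525 values stayed on their side of the threshold, 441 lost the call and 0 of the called values changed sign. The female count of 3 was 10 without a filter and 0 with summed counts (331 at an unadjusted p below 0.05). Summed counts also gave 0 calls beside the CD allele (1713) and 0 for the difference between backgrounds (1072). No paired analysis was possible because the groups compared share no library number. With 2 lines a genotype, effects of *Obp50c* and of a line cannot be told apart, and low genes such as *CG34444* rest on few fragments in the null.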
